A study of Oryctolagus cuniculus with 6 samples.

Results

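The alpha globin gene HBA, the beta globin gene HBB2 and ALAS2, the red cell form of 5-aminolevulinate synthase, were followed across rabbit blastocysts that had been cryopreserved and transferred. They are 3 of the 8090 named genes with a tested probe on the array. Probes were taken by the gene name, the description or the accessions that the array files give, which found 11 of 43603 non-control probes: 3 for HBA, 2 for HBB2 and 6 for ALAS2. All 11 passed the filter on dim probes, but ALAS2 probes A_04_P012452 to A_04_P012455 did so only with their treated readings counted. The genes were chosen by their log2 treated over control ratios in these same 6 arrays, so the ratios are given as a description, without a p-value for any of them.

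Embryos were New Zealand White rabbit blastocysts of 6 days. The control embryos were untreated, the Vitrified embryos had been cooled after exposure to DMSO and ethylene glycol, and the Frozen embryos had been cooled slowly in DMSO. Only embryos that were still viable were collected, and both cryopreserved groups had passed through a recipient female while the controls are described as in vivo counterparts, so cryopreservation and transfer cannot be told apart here. Each of the 6 two-colour arrays compared the RNA of a treated sample with that of a control sample. There were 3 arrays per treatment, and the dyes were swapped in replicate 2. The labels name the control of each replicate alike on the vitrified and the frozen array, and state 3 control replicates in all. The 2 treatments are therefore measured against the same control extracts, as labelled, and their values are not independent of each other. Per array, 44.7% to 58% of the green spots and 64.2% to 74.5% of the red spots were well above background. Slide 1 held vitrified replicate 1 and frozen replicates 1 and 2, and slide 2 held the other arrays. Of 13 blastocyst markers listed, 8 had a named probe, and 7 of these were well above background in all 6 control readings, among them POU5F1, GATA3 and KRT8.

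Haemoglobin carries oxygen in red blood cells. It is built from alpha and beta globin chains, each of which holds a heme group, and ALAS2 catalyses the first step of heme synthesis in developing red cells, while ALAS1 does so in other cells. In mammalian embryos the first red cells arise in the yolk sac after implantation, a stage that a blastocyst has not reached, and adult-type globin messengers are among the most abundant RNAs of blood. In RNA from whole embryos, more cells of a type and more RNA per cell cannot be told apart.

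The probe sequences below show which part of each transcript was read. For HBA they lay at 2 places of the transcript, and capitals mark the 48 bases that 2 of the probes share.

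HBA A_04_P048372: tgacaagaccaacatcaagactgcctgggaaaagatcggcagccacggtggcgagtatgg
HBA A_04_P003481: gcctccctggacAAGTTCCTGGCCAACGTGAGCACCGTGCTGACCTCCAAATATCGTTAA
HBA A_04_P002986: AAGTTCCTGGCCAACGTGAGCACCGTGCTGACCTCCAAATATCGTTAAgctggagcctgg

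Probe A_04_P048372 started at base 53 of the transcript the array files name, A_04_P003481 at base 405 and A_04_P002986 at base 417. The last 2 are overlapping reads of the same stretch and do not count as separate evidence. The array files give these 3 probes no genome position.

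The HBB2 probe A_04_P001081 started at base 290 of its transcript and was placed on chr1:146237830-146237889, minus strand. The sources used here name no genome build for these array coordinates.

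HBB2 A_04_P001081: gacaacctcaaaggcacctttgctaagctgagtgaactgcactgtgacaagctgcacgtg

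The other HBB2 probe, A_04_P005566, was placed on chr1:146238243-146238302 of the opposite strand. Its reverse complement holds the stretch cccaaaacagacagaATGgtgcatc, in which capitals mark a start codon. It thus runs antisense to the globin transcript near its start codon.

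Of the ALAS2 probes, A_04_P023601 was assigned by its accessions and placed within chrX:36434483-36435107, minus strand. The other 5, A_04_P012451 to A_04_P012455, were assigned only by a description as similar to delta-aminolevulinate synthase together with their place at chrX:36437797-36437866, minus strand. They are shifted by single bases and share the 56 bases in capitals below, so they are 1 measurement made 5 times.

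ALAS2 A_04_P023601: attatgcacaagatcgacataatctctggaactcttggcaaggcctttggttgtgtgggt
ALAS2 A_04_P012455: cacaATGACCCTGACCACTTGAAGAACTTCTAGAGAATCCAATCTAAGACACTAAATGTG

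For each gene the probe with the highest mean signal was taken as its main probe: A_04_P003481 for HBA, A_04_P001081 for HBB2 and A_04_P023601 for ALAS2.

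Beta globin had the highest treated over control ratio of all 30767 tested probes in vitrified embryos and the second highest in frozen embryos. On the main HBB2 probe, the log2 ratio was 1.78, 4.61 and 4.29 on vitrified arrays 1, 2 and 3, where 1 unit is a 2-fold difference. It was 3.60, 1.25 and 0.76 on frozen arrays 1, 2 and 3. Every array thus read more HBB2 in the treated than in the control embryos. Vitrified arrays 2 and 3 were high, frozen array 1 lay among the vitrified arrays, and the ranges of the 2 treatments overlapped. The fitted difference, with the dye as a covariate, was 3.61 ± 0.67 (SE) in vitrified embryos, or 12.2-fold, and 1.92 ± 0.67 in frozen embryos, or 3.8-fold, with 3 arrays each.

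The antisense HBB2 probe ranked the arrays within each treatment as the main probe did. Its log2 ratios were 0.96, 4.33 and 2.76 on the vitrified arrays and 1.98, 1.42 and 0.30 on the frozen arrays. Fitted values were 2.91 ± 0.47 and 1.46 ± 0.47. Among all tested probes this was rank 2 in vitrified and rank 19 in frozen embryos. A probe in this direction would not be met by labelled copies of the globin transcript itself if labelling kept the strand, and what it bound was not tested.

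Alpha globin was the steadier of the 2 chains in vitrified embryos. The main HBA probe had log2 ratios of 2.27, 2.43 and 2.52 on the vitrified arrays, a spread of 0.13 (SD, n = 3). On the frozen arrays it had 2.33, 0.47 and 0.53, with an SD of 1.06. Frozen array 1 lay inside the vitrified range, and the other 2 frozen arrays lay below it. The fit gave 2.33 ± 0.32 in vitrified embryos, or 5.02-fold, and 1.03 ± 0.32 in frozen embryos, or 2.05-fold.

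The overlapping HBA probe A_04_P002986 read nearly the same, with fitted values of 2.21 ± 0.29 and 1.04 ± 0.29. The probe near the 5′ end, A_04_P048372, had more spread, at 1.45, 3.42 and 2.65 on the vitrified arrays and 2.01, 0.98 and 0.36 on the frozen arrays. Its fitted values were 2.61 ± 0.38 and 1.21 ± 0.38. In vitrified embryos its order over the 3 arrays was that of HBB2 and not that of the other HBA probes. The 3 HBA probes held ranks 4, 5 and 6 of all tested probes in vitrified embryos and ranks 28, 50 and 54 in frozen embryos.

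**Figure D1:**
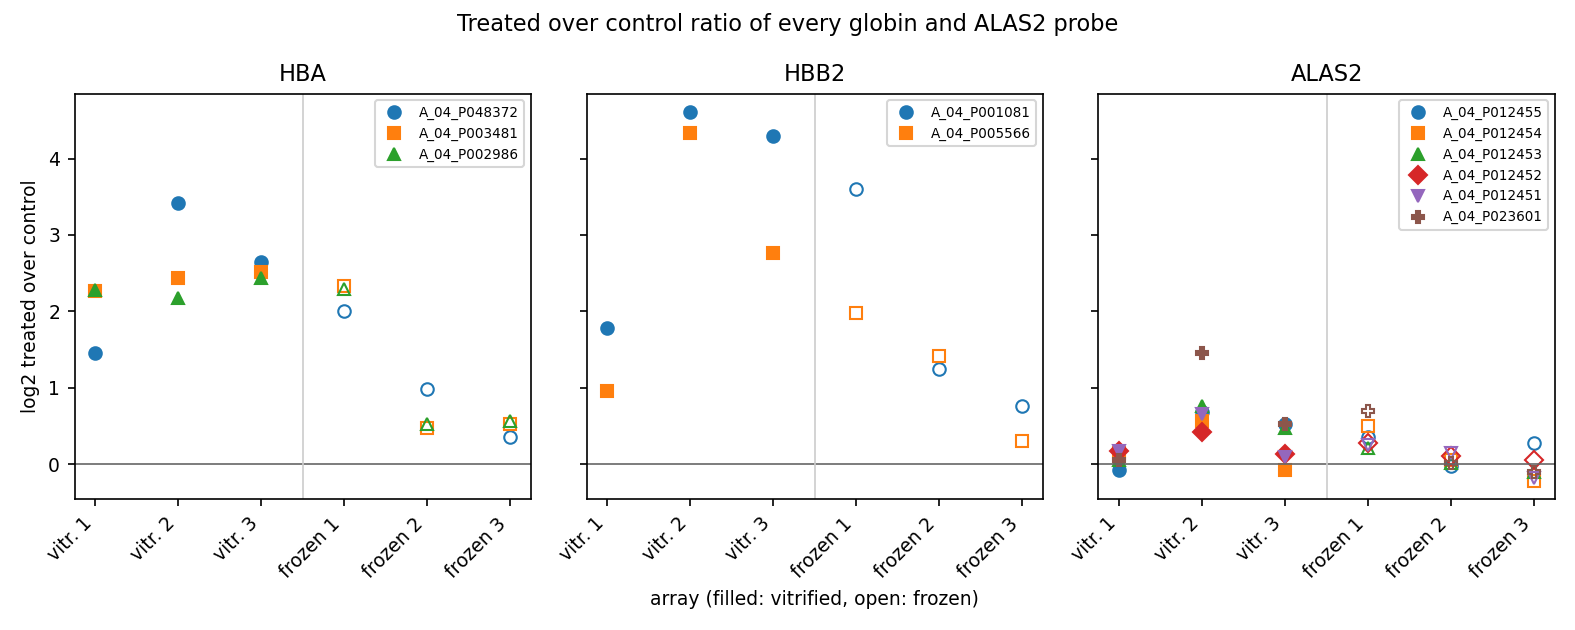
The log2 ratio of treated over control (y axis) is plotted for each of the 11 probes on each of the 6 arrays (x axis), with filled marks for vitrified and open marks for frozen arrays and no averaging. All globin marks lie above 0, frozen array 1 lies among the vitrified arrays, and most ALAS2 marks lie near 0.

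The 2 chains did not keep the same ratio to each other from array to array. The HBB2 log2 ratio exceeded that of HBA by 2.18 and 1.77 on vitrified arrays 2 and 3 and by 1.27, 0.78 and 0.23 on frozen arrays 1, 2 and 3. On vitrified array 1 the HBB2 ratio was lower than that of HBA, by a difference of -0.49. These values are of the main probes, and the sign on vitrified array 1 depends on the probe. There the 5′ HBA probe read 1.45, below the main HBB2 probe at 1.78 and above the antisense HBB2 probe at 0.96. These differences compare ratios, not amounts of the 2 chains.

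ALAS2 read close to background. Over its 6 probes, 15 of 36 control readings, 18 of 18 vitrified readings and 12 of 18 frozen readings were well above background. The calls also followed the dye: control readings passed more often in Cy5 than in Cy3. The frozen readings that failed were those in Cy3, on frozen array 2. Since 5 of the probes overlap, the readings are not separate, and the counts do not compare detection between groups. The main probe gave log2 ratios of 0.05, 1.45 and 0.53 on the vitrified arrays and 0.70, 0.01 and -0.10 on the frozen arrays. Vitrified array 2 stood highest, and vitrified array 1 and frozen arrays 2 and 3 lay near 0. The fit gave 0.75 ± 0.25 in vitrified embryos, or 1.68-fold, which was rank 261 of all tested probes, and 0.28 ± 0.25 in frozen embryos, or 1.21-fold. With the scanner's own log ratio in place of the renormalized one, the vitrified value was 1.36.

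The 5 overlapping ALAS2 probes had smaller fitted differences, between 0.25 and 0.46 in vitrified embryos and between 0.08 and 0.21 in frozen embryos, each with an SE of 0.10 to 0.16. On vitrified array 2 all 6 ALAS2 probes lay above 0, between 0.42 and 1.45, and on frozen array 1 all 6 lay between 0.21 and 0.70. On frozen array 3 only 2 of 6 lay above 0. Probes A_04_P012453, A_04_P012454 and A_04_P012455 were not well above background in any control reading of the frozen arrays, so their fold changes there are uncertain. Their treated reading on frozen array 2 was not well above background either. On frozen array 3 the first 2 of them read below control, at 0.928-fold and 0.859-fold.

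Counted over all members, the ratio was above 0 on all 3 vitrified arrays for 9 of 11 probes, beside 20.4% of all tested probes, and on all 3 frozen arrays for 6 of 11, beside 15.7%. It was above 0 on all 6 arrays for 3 of 3 HBA, 2 of 2 HBB2 and 1 of 6 ALAS2 probes, beside 5.54% of all tested probes. It was at least 2-fold on all 3 vitrified arrays for 3 HBA probes and 1 HBB2 probe, beside 0.0423% of all tested probes, and for no member on all 3 frozen arrays, beside 0.039%. After Benjamini-Hochberg adjustment over all tested probes in limma, 0 of 11 member probes passed an adjusted p of 0.05 in any comparison, beside 0.0195% of all tested probes called higher in vitrified embryos and 0.0878% in frozen embryos. Some values moved when a single array was left out. Without vitrified array 2 the ALAS2 value in vitrified embryos was 0.14, while vitrified arrays 1 and 3 read 0.05 and 0.53. Those arrays are both in Cy5, so the dye term of that fit came from the frozen arrays alone. Leaving out frozen array 1 took the frozen values to 1 for HBB2, 0.50 for HBA and -0.04 for ALAS2. The 5 overlapping ALAS2 probes are 1 measurement, and 2 of the HBA probes overlap, so the 11 probes are not separate. Since these contrasts chose the members, neither the counts nor the adjusted threshold tests them, and nothing further is read from either.

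Between the treatments, every HBA and HBB2 probe had the higher fitted value after vitrification. The difference on the main probes was 1.69 ± 0.91 for HBB2, 1.29 ± 0.44 for HBA and 0.47 ± 0.34 for ALAS2 (log2, vitrified over frozen). The 3 vitrified arrays lay above the 3 frozen arrays without overlap for 0 of 11 member probes, beside 5.75% of all tested probes. In the same fit 0% of all tested probes were called in either direction, and 7.54% had an unadjusted p under 0.05.

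The values of the 2 slides differed, and with 1 array in an arm of each slide, slide and array cannot be told apart. On slide 1 alone, with vitrified array 1 against frozen arrays 1 and 2, the difference was -0.65 for HBB2, 0.86 for HBA and -0.30 for ALAS2. On slide 2 alone, with vitrified arrays 2 and 3 against frozen array 3, it was 3.69, 1.94 and 1.09 in that order. Vitrified over control on slide 1 was 1.78 for HBB2, 2.27 for HBA and 0.05 for ALAS2, against 4.45, 2.47 and 0.99 on slide 2. Frozen over control on slide 1 was 2.43 for HBB2, 1.40 for HBA and 0.35 for ALAS2, against 0.76, 0.53 and -0.10 on slide 2. With the slide as a covariate over all arrays, the vitrified over frozen differences were 1.52, 1.40 and 0.39 for the 3 genes. Each slide holds only 3 arrays, so no spread within a slide was estimated.

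Channel levels show how the ratios arose. On the main HBB2 probe the unscaled signal of the treated channel was 19097, 54689 and 54870 on the vitrified arrays and 85171, 4813 and 4764 on the frozen arrays. The control channel of the same spots read 1377, 10253 and 1229, and 1535, 4413 and 1255. In replicate 2 the treated sample carried Cy3 and the control Cy5, so signals of replicate 2 are to be set only against each other. No member spot was saturated.

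After normalization the HBB2 level in log2 units was 13.06, 16.98 and 15.56 in the vitrified channels and 15.01, 12.76 and 11.58 in the frozen channels. The control channels lay between 10.82 and 12.37. All 3 vitrified levels were above every control reading, while the lowest frozen level was not. With each control extract averaged over its 2 arrays, the means were 11.44 ± 0.46 in controls, 13.12 ± 1.74 in frozen and 15.20 ± 1.98 in vitrified embryos (SD, n = 3 each). The order of the means was control, frozen, vitrified. Control and frozen means differed by less than the SD of the frozen samples, and frozen and vitrified means by about the SD of the vitrified samples. Such SDs leave aside that treated and control shared a spot, here and for HBA and ALAS2 below. Within spots the frozen HBB2 ratio was above 0 on all 3 arrays, at 3.60, 1.25 and 0.76.

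For the main HBA probe the vitrified levels were 12.61, 14.99 and 13.66, and the frozen levels 12.81, 10.80 and 10.03. Control levels lay between 9.50 and 12.56, a wider range than for HBB2. The means were 10.72 ± 0.63 in controls, 11.21 ± 1.44 in frozen and 13.75 ± 1.19 in vitrified embryos. Control and frozen means differed by less than the SD of the frozen samples, and the vitrified mean lay further above both than the SD of any group. The 3 vitrified levels lay above every control reading by this probe, and for the overlapping probe A_04_P002986 the lowest vitrified level, 12.43, lay under the highest control reading, 12.57.

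For the main ALAS2 probe the levels were 7.43, 8.66 and 7.94 in vitrified and 7.94, 7.01 and 7.16 in frozen embryos, with control readings of at most 7.41. The means were 7.25 ± 0.13 in controls, 7.37 ± 0.50 in frozen and 8.01 ± 0.62 in vitrified embryos. Here too the control and frozen means differed by less than the SD of the frozen samples.

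**Figure D2:**
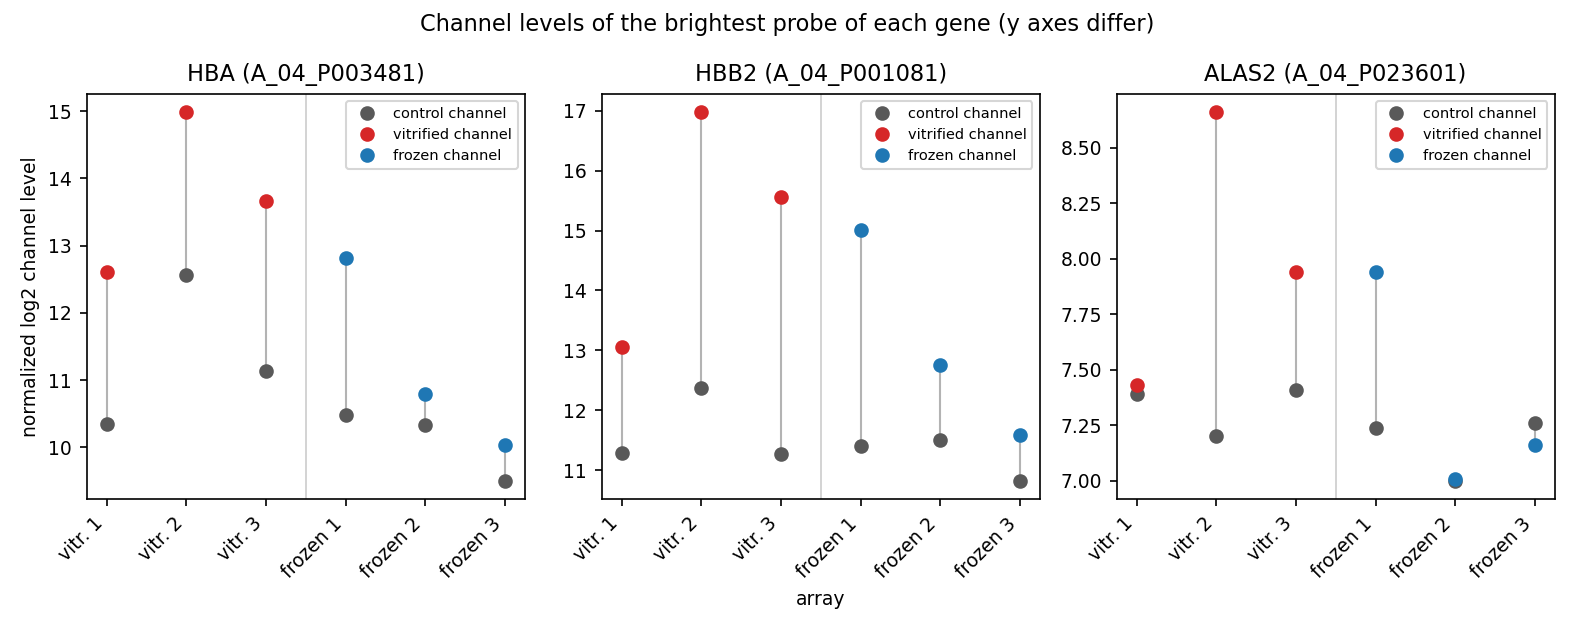
Normalized log2 levels of the main probe of each gene (y axis, with a separate range per panel) are plotted for the control channel in grey and the treated channel in red for vitrified and blue for frozen, on each array (x axis), joined by a line whose length is the log2 ratio. The HBA control mark is highest, at 12.56, on vitrified array 2, where the treated mark is also highest.

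The HBA control readings did not repeat between arrays that carry the same control label. For replicate 1, the main HBA probe read 10.34 on the vitrified array and 10.48 on the frozen array. For replicate 2 it read 12.56 and 10.33, and for replicate 3 it read 11.14 and 9.50. The control of replicates 2 and 3 was thus 4.7-fold and 3.1-fold brighter on the vitrified array, where the treated channel was brighter as well, by 4.19 and 3.62 log2 units.

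Few probes moved that far. The median absolute difference between the paired control readings over all tested probes was 0.14, 0.17 and 0.22 log2 units for replicates 1, 2 and 3. Only 0.0163% of probes in replicate 2 and 0.185% in replicate 3 differed by more than the main HBA probe. The other HBA probes read alike, with differences of 1.52 and 2.75 in replicate 2 and 1.41 and 2.16 in replicate 3.

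HBB2 control readings repeated more closely, although the treated channel differed as much. On the main HBB2 probe the control differed by -0.13, 0.86 and 0.45 in replicates 1, 2 and 3, and the treated channel by -1.95, 4.22 and 3.99. In replicate 2, 1.21% of all probes differed by more, and in replicate 3, 19.1%. The antisense probe differed by -0.17, 0.56 and 0.75 in its control readings. ALAS2 control readings stayed within -0.22 to 0.20 on all 6 probes and all 3 replicates.

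A ratio is taken within a spot, so a brighter control reading gives a smaller ratio. The HBA ratios over the vitrified arrays had a narrow range, 2.27 to 2.52. Their normalized treated levels differed by more than 2 log2 units between vitrified arrays 1 and 2. The unscaled treated signals of the main HBA probe were close on vitrified arrays 1 and 3, both in Cy5, at 13773 and 14298. The levels of these 2 arrays, 12.61 and 13.66, thus came apart only after normalization. Array 2 read 13999 in Cy3, which cannot be set against the Cy5 signals. Whether the paired readings come from 1 extract, and what share of the control reading came from the control embryos, was not tested.

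**Figure D3:**
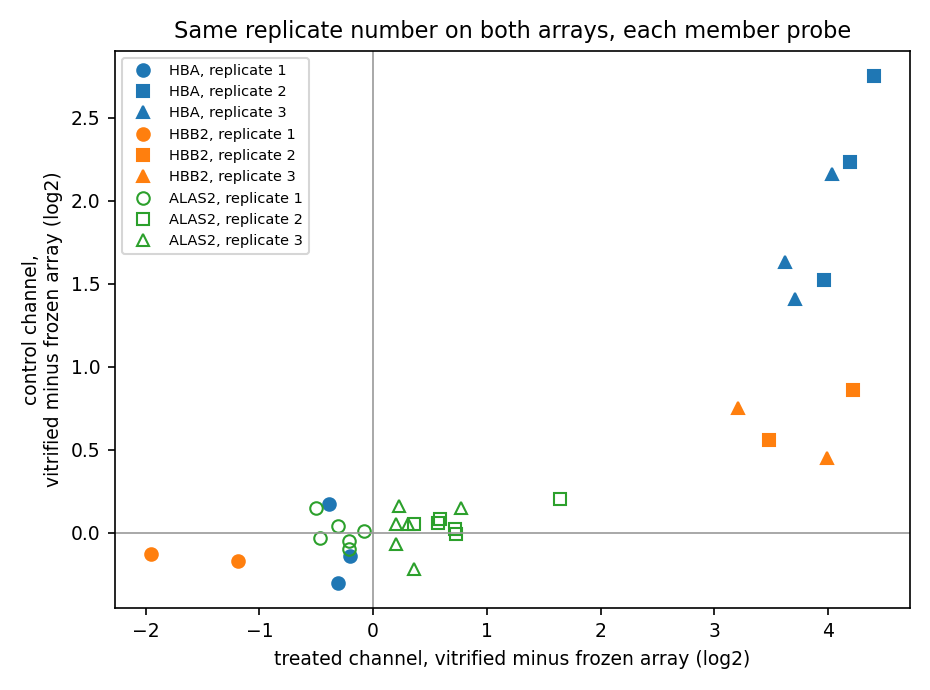
Each mark is 1 member probe in 1 replicate. The x axis gives the treated level on the vitrified array minus that on the frozen array, and the y axis the same difference for the control channel, whose label is shared by both arrays (log2 units). The HBA probes of replicates 2 and 3 lie between 1.41 and 2.75 on the y axis, the HBB2 probes between 0.45 and 0.86, and the ALAS2 probes within -0.22 to 0.20.

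The other globins that were read above background in controls had smaller differences. Theta globin HBQ1, well above background in all channels, had 0.18 ± 0.11 in vitrified embryos (limma, adjusted p = 0.429) and 0.05 ± 0.11 in frozen embryos (adjusted p = 0.909). A probe described as zeta globin, an embryonic alpha-type chain, had 0.02 ± 0.09 and -0.06 ± 0.09. It was well above background in 2 of 6 control and 4 of 6 treated readings. Neuroglobin NGB, a globin of nerve cells, was at 0.06 ± 0.09 and -0.02 ± 0.09. Cytoglobin CYGB was well above background in 0 of 6 control and 3 of 6 treated readings, so no fold is given for it. A probe described only as rabbit globin messenger was at 0.06 ± 0.14 and 0.02 ± 0.14, and which chain it reads is not given. Of 10 other globin genes listed, 3 had a named probe, and 0 passed the adjusted test in either treatment, as at an unadjusted p under 0.05. Those without a named probe, such as HBE1, were not analysed here.

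Other genes of heme synthesis had small values of either sign. Of 18 genes listed for heme synthesis and mitochondrial iron supply, 16 were tested and 0 passed in any comparison. Their median log2 difference was -0.04 in vitrified and 0.10 in frozen embryos, beside 0.01 for all tested probes in each. At an unadjusted p under 0.05 there were 3 higher and 2 lower genes in vitrified embryos and 1 higher in frozen embryos, where 17.4% and 13.2% of all tested probes passed.

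Among enzymes, ALAS1, the form of the first enzyme used outside red cells, was at 0.37 ± 0.11 in vitrified (adjusted p = 0.19) and 0.21 ± 0.11 in frozen embryos (adjusted p = 0.461). PPOX, which makes protoporphyrin, was at 0.41 ± 0.13 and CPOX, which acts just before it, at -0.27 ± 0.09 in vitrified embryos. FECH, which inserts the iron, was at -0.13 ± 0.11. Of the transporters, SLC25A39 had the highest value at 0.58 ± 0.16 in vitrified embryos. Successive steps of the pathway thus had values of both signs.

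Tested genes of the red cell lineage gave no value near those of the globins, but some of them read close to background. Of 38 listed, 16 had a named probe and 12 were tested, and 0 passed in any comparison, with 1 higher and 1 lower in vitrified and 1 higher in frozen embryos at an unadjusted p under 0.05. Their values ran from -0.33 to 0.35 in vitrified embryos, with a median of -0.01, and from -0.12 to 0.25 in frozen embryos, with a median of 0.06. The highest in vitrified embryos was EPOR, the erythropoietin receptor, at 0.35 ± 0.11 (adjusted p = 0.204), and the lowest was CA2, a carbonic anhydrase, at -0.33 ± 0.10 (adjusted p = 0.198). SLC4A1, the band 3 anion exchanger of the red cell membrane, was at -0.07 ± 0.11, and the red cell beta spectrin SPTB was at -0.07 ± 0.10. HEMGN and BPGM, a nuclear protein and a metabolic enzyme of red cells, were at 0.12 ± 0.11 and 0.25 ± 0.14. SLC4A1 was well above background in 4 of 6 control readings and SPTB and HEMGN in 2 of 6, so their fold changes are uncertain. EPOR, CA2 and BPGM were in all 6.

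Of the 6 defining red cell markers apart from the members, SLC4A1 and ALOX15, a lipoxygenase of reticulocytes, had a named probe. ALOX15 was not well above background in any channel. GATA1, KLF1 and AHSP had no named probe and were not analysed here. The summed level of the 12 tested lineage genes was 8640 to 13100 in controls, 9480 to 10700 in vitrified and 11000 to 12400 in frozen channels. The control range held both treated ranges, and the vitrified range lay below the frozen range. Such sums follow the brightest genes of a list, here and for the lists below.

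**Figure D4:**
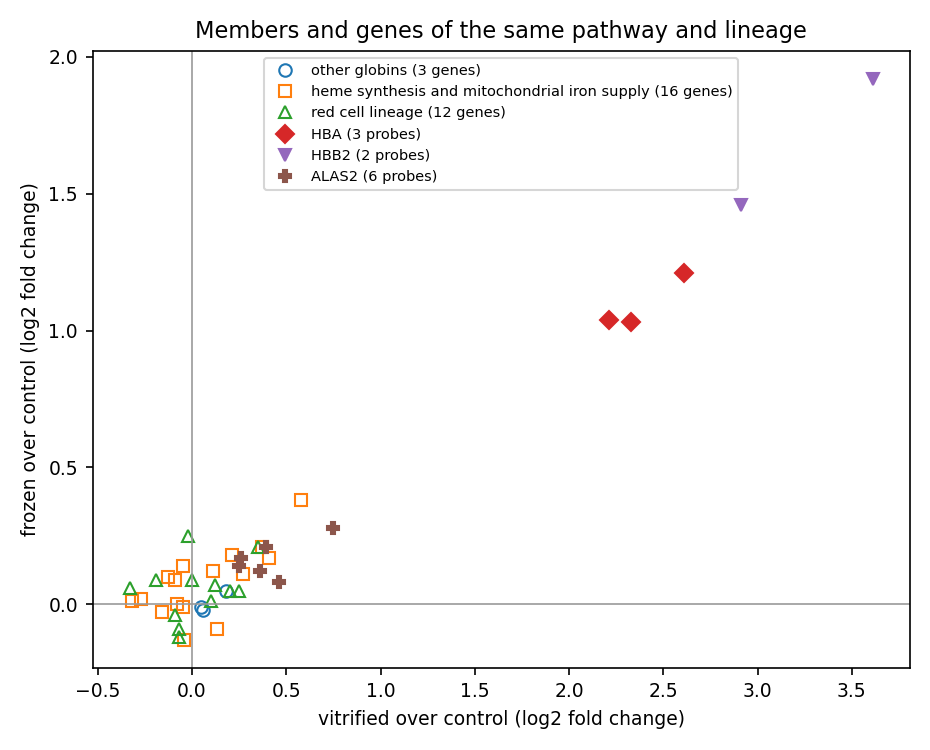
Fitted log2 fold changes against control are plotted for vitrified (x axis) and frozen embryos (y axis). Open marks are the tested genes of the lists of other globins, heme synthesis and red cell lineage, and filled marks are the 11 member probes. The globin probes lie at 2.21 to 3.61 on the x axis, and the list genes between -0.33 and 0.58.

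No marker of other blood cells passed the test. Of 28 white blood cell genes, 15 were tested, with a median of 0.03 in vitrified and 0.02 in frozen embryos and 0 called in either. Unadjusted, 2 were higher and 1 lower in vitrified embryos and 2 lower in frozen embryos. SRGN, a proteoglycan of blood cell granules, was at -0.80 ± 0.16 in frozen embryos (adjusted p = 0.123) and below 0 on all 3 frozen arrays. Of 6 defining white cell markers on the array, PTPRC and S100A8, which define leukocytes and neutrophils, were not well above background in any channel, while S100A9 and LAPTM5 were in every channel. S100A9, of the same neutrophil protein pair as S100A8, was at 0.29 ± 0.11 in vitrified (adjusted p = 0.254) and 0.08 ± 0.11 in frozen embryos. LAPTM5, a lysosomal protein of leukocytes, was at -0.21 ± 0.16 and -0.11 ± 0.16. Summed levels of the 15 genes were 13600 to 16800 in controls, 11500 to 14600 in vitrified and 10300 to 11000 in frozen channels. The frozen range lay below the control range, although 8 of the 15 genes had a fitted value above 0 in frozen embryos. Of 14 platelet genes 4 were tested, with medians of 0.18 and 0.03, and of 17 endothelial genes 5 were tested, with medians of 0.06 and -0.02. Most of the endothelial genes read close to background: PECAM1 and TEK were well above it in 2 of 6 control readings and KDR and FLT1 in 1 of 6. None of the 9 platelet and endothelial genes was called, and unadjusted only ITGB3 passed, at 0.22 ± 0.09 in vitrified embryos.

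Genes that bind or handle heme and iron had larger values, and none passed. Haptoglobin HP, which binds free haemoglobin in plasma, was at 1.09 ± 0.26 in vitrified embryos (limma, adjusted p = 0.167). Its array values of 0.30, 2.51 and -0.41 show that vitrified array 2 carried this value. The ferritin light chain FTL was at 0.61 ± 0.12 (adjusted p = 0.145), above 0 on all 3 vitrified arrays, and at -0.01 ± 0.12 in frozen embryos. The transferrin receptor TFRC, through which cells take up iron, was at -0.63 ± 0.14 (adjusted p = 0.151) and below 0 on all 6 arrays. Transferrin TF, the iron carrier of plasma, had the lowest value of the list in frozen embryos, -1.20 ± 0.25 (adjusted p = 0.133), at -1.41, -1.08 and -1.11 on the 3 arrays. STEAP3, an iron reductase, was at 0.60 ± 0.20 in vitrified and 0.71 ± 0.20 in frozen embryos (adjusted p = 0.201 in frozen embryos). Of the 20 genes tested in this list 0 passed, and the medians were 0.06 and 0.11. Unadjusted, 5 were higher and 2 lower in vitrified embryos and 4 higher and 2 lower in frozen embryos.

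Of all list genes, a uterine gene had the highest value in both treatments. SCGB1A1, the uteroglobin that the rabbit uterus secretes, had log2 ratios of 2.53, 2.52 and 0.55 on the vitrified and 1.25, 2.00 and 0.78 on the frozen arrays. The fitted values were 2.03 ± 0.32 (adjusted p = 0.144) and 1.51 ± 0.32 (adjusted p = 0.135). Its order of arrays was not that of the globins. Among the vitrified arrays SCGB1A1 was lowest on array 3, while HBB2 was lowest on array 1. Among the frozen arrays SCGB1A1 was highest on array 2, while every globin probe was highest on array 1. WFDC2, a secreted protein of reproductive tract epithelium, was at -0.08, 1.80 and 0.91 on the vitrified arrays, in the same order as HBB2, and at 0.38, 0.79 and -0.80 on the frozen arrays, in another order. Of 13 uterine genes 9 were tested and 0 passed, with medians of 0.18 and 0.17, and unadjusted 4 were higher in vitrified and 2 in frozen embryos. Their summed level was 2320 to 4390 in controls, 4980 to 7970 in vitrified and 2410 to 5100 in frozen channels, so that the vitrified range lay above the control range. PGR, the progesterone receptor, was well above background in 2 of 6 control readings. The part of uterine RNA in the globin values was not tested.

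Of 16 tested hypoxia response genes, which answer low oxygen, 0 passed, and the medians were -0.09 in vitrified and -0.12 in frozen embryos. Unadjusted, 1 was higher and 2 lower in each treatment. BNIP3, a hypoxia-induced mitochondrial protein, was at -0.61 ± 0.22 in vitrified embryos (adjusted p = 0.234). Among 11 tested blastocyst lineage genes 0 passed, with medians of 0.14 and 0.27, and unadjusted 3 were higher and 1 lower in vitrified and 4 higher and 3 lower in frozen embryos. GATA2, a factor of trophectoderm and later of blood progenitors, was at 0.72 ± 0.14 in vitrified (adjusted p = 0.144) and 0.56 ± 0.14 in frozen embryos (adjusted p = 0.168). POU5F1, the pluripotency factor OCT4, was at -0.82 ± 0.22 in frozen embryos (adjusted p = 0.191) and OTX2, a homeobox factor of the epiblast, at -0.51 ± 0.13 (adjusted p = 0.174), each below 0 on all 3 frozen arrays. EPCAM, an epithelial adhesion protein, was at -0.51 ± 0.14 in vitrified (adjusted p = 0.185) and -0.44 ± 0.14 in frozen embryos, below 0 on all 6 arrays.

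The genes whose array pattern was most like the globins were found by Pearson's r over the 6 array ratios with the mean of the main HBA and HBB2 probes. This compared 1834 named genes whose brightest probe had an SD of at least 0.3 over the arrays, of which 18 had an r over 0.9. With 6 points that share 3 control labels, and dye and slide too, r is given only to rank the genes. The 9 highest, from 0.983 to 0.947, were CYP26A1, FGD6, SLC16A9, FABP5, KRTCAP3, TFPI, MAPK7, DYNC2LI1 and SNRPN.

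Likeness of pattern did not mean a like level. CYP26A1, which degrades retinoic acid, had log2 ratios of -0.41, -0.01 and 0.07 on the vitrified and -0.13, -0.56 and -0.71 on the frozen arrays. TFPI, an inhibitor of blood coagulation, was below 0 on all 6 arrays, at -2.41, -0.67 and -0.30 and then -0.93, -3.12 and -2.68. FABP5, a fatty acid binding protein, was at 0.20 on vitrified array 2 and at -1.41 on frozen array 3. In these genes vitrified arrays 2 and 3 stood above vitrified array 1, and frozen array 1 above frozen arrays 2 and 3, with ratios on either side of 0.

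**Figure D5:**
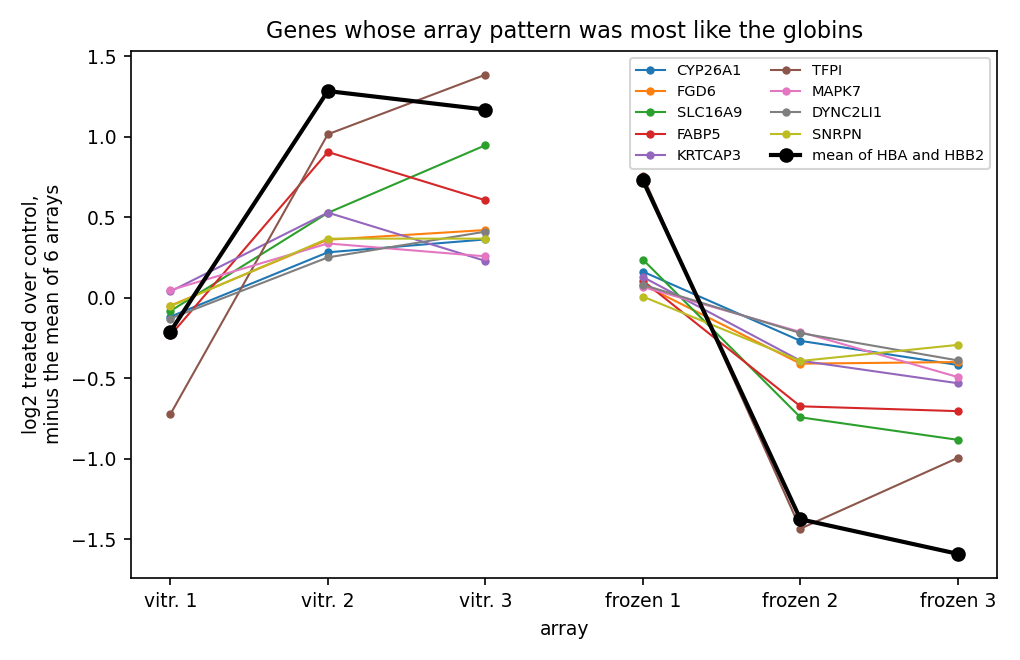
The log2 ratio minus its mean over the 6 arrays (y axis) is plotted by array (x axis) for the mean of the main HBA and HBB2 probes in black and the 9 named genes with the highest r, from 0.947 to 0.983. Lines join the arrays of 1 treatment only to show which points belong to a gene. All genes are highest on vitrified array 2 or 3.

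Within the members, the pattern of the globin mean had an r of 0.948, 0.935 and 0.906 with the HBA probes, 0.978 and 0.835 with the HBB2 probes, and 0.839 with the main ALAS2 probe. The first 5 of these share data with the mean or its gene. The pattern of ALAS2 was closer to the 5′ HBA probe, with an r of 0.923, than to the main HBA probe, with 0.664. The 5 named genes most like ALAS2 were SYTL1, RTRAF, HSF1, TAF6L and CNPY3, with r from 0.978 to 0.925, of 12 genes with an r over 0.9. HSF1, the heat shock transcription factor, had ratios of -0.28, 0.63 and 0.03 on the vitrified arrays and -0.01, -0.06 and -0.49 on the frozen arrays, so that only vitrified array 2 stood clearly above 0.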

How the data were processed

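Levels were read on two-colour Agilent arrays with 100 ng of RNA per labelling, per the labels' protocols. The deposited scanner files hold intensity values per spot and channel, made with Agilent Feature Extraction 10.10.1.1 per the submitters' processing notes, and a log10 ratio per spot, per the file headers. A genome build is not given in the sources used here.

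Intensities were corrected with normexp (offset 50), normalized by loess within arrays with control spots at weight 0, and averaged per probe, leaving out flagged spots (limma 3.58.1, R 4.3.3). The filter kept the 30767 of 43603 probes that at least 3 of the 12 channel readings placed well above background. Ratios were turned to treated over control and fitted with vitrified, frozen and dye terms by lmFit and eBayes (3 residual degrees of freedom). P-values were adjusted over all tested probes by Benjamini-Hochberg. Channel levels came after Aquantile scaling. The step was tested on simulated data. The number of arrays limits the precision: 3 against 3 could not reach an exact permutation p under 0.05. Nothing says whether replicates came from separate animals, so p-values measure the spread between these extracts.

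Gene names came from a RefSeq gene table of assembly mOryCun1.1, which gave 1 symbol to 21114 probes, several to 213 and only a gene number to 1311. A further 33 kept the name of the file and 20932 had none. For a gene with several probes the brightest was used.

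Members and lists were chosen with earlier results of these data known. Named genes were every member probe, up to 3 list genes per comparison with the smallest p, any tested gene of the globin, heme synthesis and red cell lists, and the genes most like the members in pattern. Some genes that this rule takes are not reported here. Replicate numbers pair the arrays through their control labels. Deviations of same-numbered arrays correlated at 0.017, 0.594 and 0.165, and the replicate block had a consensus correlation of -0.103.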

Additional observations from a re-analysis of the deposited data

How the results depend on the processing

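With the replicate block as a random term, the values of HBA, HBB2 and ALAS2 were 2.33, 3.61 and 0.75 in vitrified and 1.03, 1.92 and 0.28 in frozen embryos, as without it. It called 8 probes in vitrified and 61 in frozen embryos, and 0 list genes, and it changed no other call.

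Over 153 recomputed member values, 141 stayed within the spread of the arrays and in the same direction. Among them, the fit to single-channel levels gave the same values as the fit without the dye term, so it is no separate check. HBA in vitrified embryos was 2.17 with median centring and 2.47 on slide 2 alone. HBB2 was 1.78 on slide 1 alone in vitrified embryos, and vitrified over frozen it was -0.65 there. ALAS2 vitrified over frozen was -0.30 on slide 1 alone, and ALAS2 in frozen embryos was -0.10 on slide 2 alone. Leaving out 1 array at a time gave 1.92 to 2.47 for HBA, 2.57 to 4.45 for HBB2 and 0.14 to 0.99 for ALAS2 in vitrified embryos, the lowest each time without vitrified replicate 2. In frozen embryos it gave 0.50 to 1.45, 1 to 2.97 and -0.04 to 0.88. The lowest value each time came without frozen replicate 1 and the highest without frozen replicate 2. Without replicate 2 of a treatment its other arrays are all in Cy5, so the dye term then comes from the other treatment alone. Vitrified over frozen it gave 0.87 to 1.90, 0.85 to 2.74 and -0.01 to 0.84, and the lowest ALAS2 value came without vitrified replicate 2 or frozen replicate 2.

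Counts of called probes moved more. In vitrified embryos 6 were called, 0 with the scanner log ratio, with scaling between arrays and with slide as a covariate, and 0 to 16 on leaving out 1 array, with 0 without vitrified replicate 2, frozen replicate 2 or frozen replicate 3 and 16 without vitrified replicate 3. In frozen embryos 57 were called (27 higher), 1 with the scanner log ratio, 33 with median centring (8 higher), 108 with scaling between arrays, 8 without the dye term and with single-channel levels, and 0 with slide as a covariate. Leaving out 1 array gave 0 to 513, with 0 without frozen replicate 2 or 3 and 513 without vitrified replicate 1. List genes called were 0 to 1 in vitrified embryos (1 without vitrified replicate 3) and 0 to 4 in frozen embryos (4 without vitrified replicate 1). The cause was not tested. ALAS2 is limited by its low signal over background.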
